A study of Rattus norvegicus with 83 samples.

Results

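The higher and the lower methimazole dose were compared in rat offspring labelled pup day 16 (PD16). Methimazole (MMI) was given to the dams at 16 mg/kg body weight per day (MMI16, 10 libraries) or at 8 mg/kg body weight per day (MMI8, 10 libraries). These 20 of the 83 libraries of the series were chosen by the dose and stage in their labels. Each library holds RNA from Sprague-Dawley offspring, labelled testis and counted by bulk RNA barcoding and sequencing, a pooled method that reads the 3′ ends of polyadenylated RNA. The labels' treatment protocol has the dams dosed by gavage every day, starting on gestational day 7 and stopping on pup day 22, whereas the series' design text ends the dosing on pup day 16. The 10 PD16 libraries from dams given the corn oil vehicle alone show where each gene stood without methimazole. Libraries labelled gestational day 21 (GD21), 6 from MMI16 and 6 from MMI8, allow the same dose comparison under the other stage label. The labels name neither litter nor animal, so each p-value reflects only how these samples vary, which may be in part technical. Dams were dosed, and libraries of a group may come from the same litter, in which case the p-values could be too small.

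Methimazole inhibits thyroid peroxidase, the enzyme that puts iodine on thyroglobulin, and so lowers the making of thyroid hormone. The drug reaches pups through the placenta and the milk. Thyroid hormone acts mainly through nuclear receptors that bind DNA as partners of the retinoid X receptor and change the transcription of target genes, with effects on growth, metabolism and the maturation of many organs.

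The labelled tissue went against the data, so the libraries are called by stage and dose only. Summed over 7 genes of the adrenal cortex, among them the steroid hydroxylase genes Cyp21a1 and Cyp11b1, the level was 7360 to 22464 CPM (a normalised read count, each count divided by its library's sum and scaled up) in MMI16 and 13352 to 21427 CPM in MMI8. Genes of the adrenal medulla, such as Dbh, which makes noradrenaline, summed to 784 to 1429 CPM in MMI16 and 810 to 1324 CPM in MMI8. The testis germ cell genes together had 14 counts in all 20 libraries, and Lhcgr and Hsd17b3 of Leydig cells had none. Of the testis somatic genes only Inha, an inhibin gene that the adrenal cortex also expresses, passed the filter on low counts. The stage labels were also at odds with the globins. Embryonic forms took 16.4 ± 4.28% of globin counts in MMI16, 17.1 ± 2.82% in MMI8 and 14.8 ± 2.51% in vehicle at PD16 (SD, n = 10 each). At GD21, the stage before birth by its label, they took only 0.199 ± 0.0901% in MMI16 and 0.0983 ± 0.0322% in MMI8 (n = 6 each). The 23 other libraries labelled PD16, from dams given amitrole, had 0.0473 to 0.368%. PD16 and GD21 therefore stand below for the labels alone, with no order of age implied, and whether labels were exchanged was not tested. Totals were 202270 to 1186973 counts (median 487568) in MMI16 and 300725 to 567756 (median 391746) in MMI8. None of 20 library measures, which cover totals, genes detected, globin share and 14 marker sums, differed between the doses after adjustment (permutation test, two-sided, lowest adjusted p = 0.379).

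Some libraries stood apart. Replicate 9 of MMI16 (replicates carry the labels' library numbers) had the highest total and 507 CPM of the liver gene Alb, and the next highest MMI16 library had 71.3 CPM. Replicate 10 of MMI16 had the lowest total. Their part in the results was measured by leaving each out, and values without them stand beside the results they move. Because the amitrole libraries differ so in their globins, the 20 libraries were also fitted alone, which gave 66 lower and 2 higher genes, 64 of them among the 102 called with all PD16 libraries. Of the genes described below, Agpat5, Zfp280b, Micu2, Pnisr, Mettl3, Kdr, Usp14, Smarca5 and Ythdf2 were not called in that fit. Dusp10, Rabl3, Sox9, Mrc1, Rnf111, Galm, Lrrc47 and Tep1 did not pass its filter on low counts.

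At the higher dose far more genes were lower than higher. Of 4906 genes that passed the filter, 93 were lower and 9 higher in MMI16 than in MMI8 at an adjusted p under 0.05 (edgeR quasi-likelihood test, Benjamini-Hochberg adjustment), which is 2.08% of the genes tested, 1.90% lower and 0.183% higher. Of the lower genes, 47 differed by at least 2-fold. The median log2 fold change over all genes tested was 0.04, and 2089 of them lay below 0. At an unadjusted p under 0.05 the split was near even, with 292 lower and 305 higher genes. In a tissue sample, fewer cells of a type and less RNA per cell cannot be told apart. The count of lower genes was 77 without MMI16 replicate 9 and 96 without MMI16 replicate 10. The count of higher genes was unsteady: it was 5 without MMI16 replicate 30, 5 without MMI8 replicate 25, 4 without MMI8 replicate 27 and 4 without MMI8 replicate 28, and it was 16 without MMI16 replicate 31, 24 without MMI16 replicate 32 and 15 without MMI8 replicate 66.

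**Figure D1:**
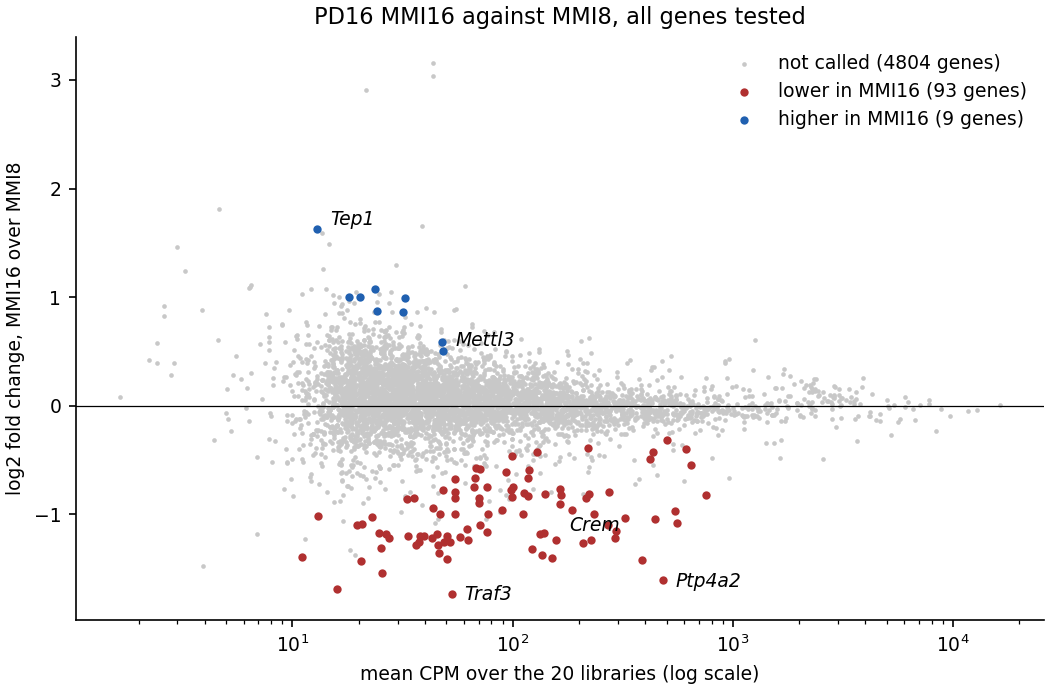
Each point is 1 of the 4906 genes tested, with its mean CPM over the 20 libraries (log scale) across and its log2 fold change, MMI16 over MMI8, up. The 93 lower genes (red) reach down to -1.73 and sit over most of the range of levels, and the 9 higher genes (blue) lie among genes of low or moderate level.

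The steepest fall was that of Traf3, an adaptor of the tumour necrosis factor receptor family that restrains the non-canonical NF-kappa B pathway. Its level was 2.53 CPM in the lowest, 24.6 CPM in the median and 44.8 CPM in the highest MMI16 library, against 21.5, 87.1 and 130 CPM in MMI8. All 10 MMI16 libraries were below the MMI8 mean, though the ranges overlapped, since MMI8 replicates 66 and 27 (21.5 and 35.4 CPM) were below the highest MMI16 library. The log2 fold change was -1.73 ± 0.28 (SE, adjusted p = 2.71e-05), a level 3.32-fold lower at the higher dose. Without MMI16 replicate 9, the library at 2.53 CPM, it was -1.53.

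Ptp4a2, a membrane-attached tyrosine phosphatase of the regenerating liver family, had the smallest p of all genes called. Its lowest, median and highest levels were 99.4, 277 and 361 CPM in MMI16, against 250, 705 and 1200 CPM in MMI8. Again every MMI16 library lay below the MMI8 mean, and 4 of them lay below the lowest MMI8 library. It fell by 1.61 ± 0.18 on the log2 scale (adjusted p = 1.60e-08). Dusp10, a phosphatase that switches off the stress kinases p38 and JNK, was low throughout, with 0, 14.9 and 24.7 CPM in MMI16 and 16.9, 36.4 and 65.6 CPM in MMI8 as lowest, median and highest values. It fell by 1.54 ± 0.29 on the log2 scale (adjusted p = 0.000226), and 6 MMI16 libraries were below all MMI8 libraries.

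**Figure D2:**
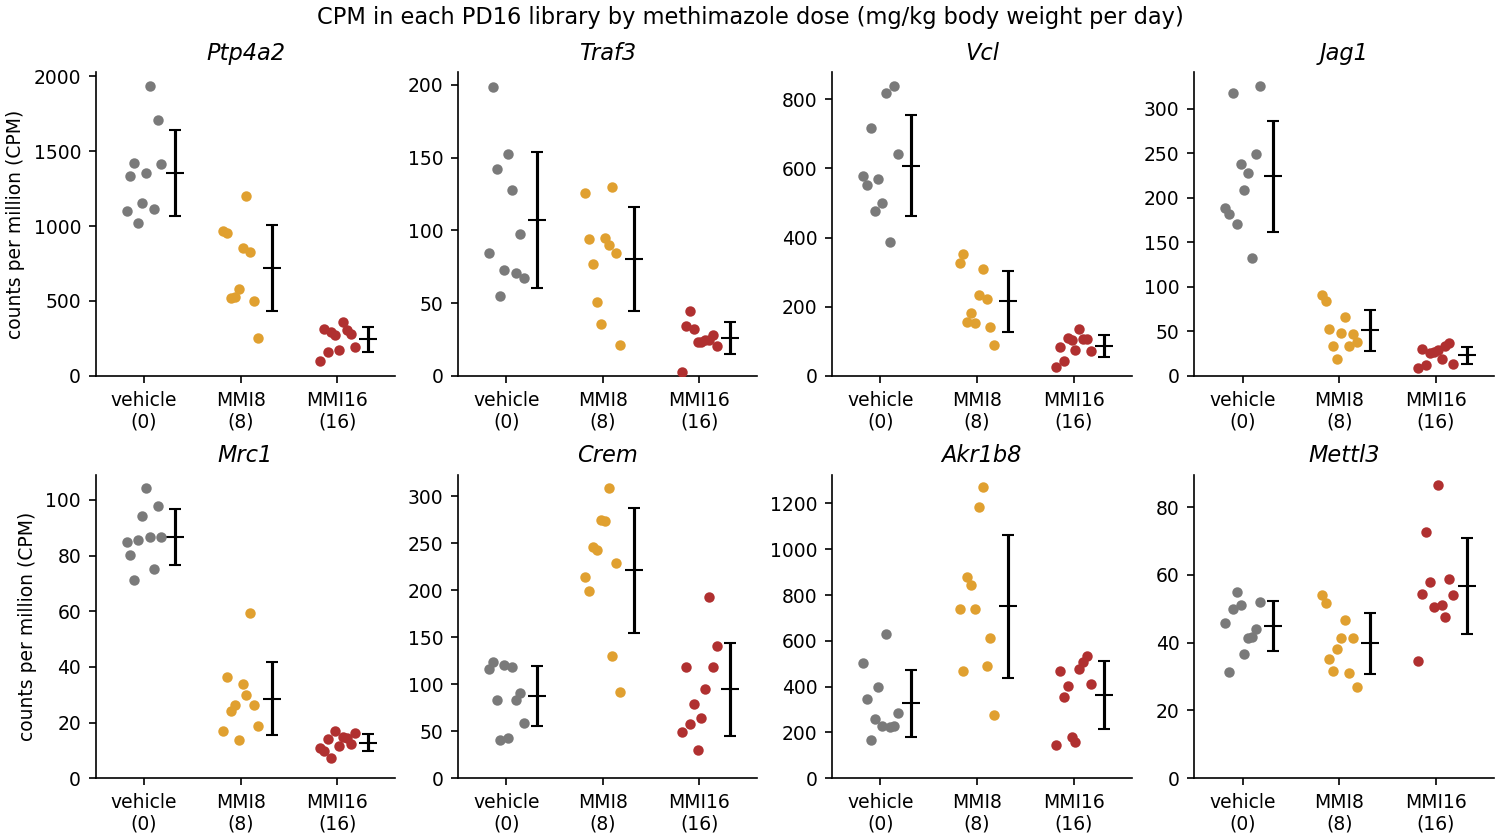
CPM of 8 genes in every PD16 library, by dose in mg/kg body weight per day; points are single libraries, and the bar beside them gives the mean and SD (n = 10 per group). Ptp4a2, Vcl, Jag1 and Mrc1 step down over vehicle, MMI8 and MMI16, Traf3 is low in MMI16 alone, Crem and Akr1b8 are highest in MMI8, and Mettl3 is highest in MMI16.

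Tob1, Ppp1r15b and Poldip3 were among the 16 largest falls. Tob1 is an antiproliferative protein that brings deadenylases to mRNAs. It had 3.37, 27.4 and 65.0 CPM (lowest, median, highest) in MMI16 and 32.3, 76.7 and 117 CPM in MMI8, and fell by 1.41 ± 0.25 on the log2 scale (adjusted p = 0.000105). Ppp1r15b, the constitutive subunit that directs protein phosphatase 1 to the initiation factor eIF2 alpha, averaged 73.3 ± 31.3 CPM in MMI16 and 172 ± 59.9 CPM in MMI8 (SD), and fell by 1.32 on the log2 scale (adjusted p = 0.000105). For these genes 6 (Tob1) and 7 (Ppp1r15b) of the 10 MMI16 libraries were below every MMI8 library. Poldip3, which ties splicing to translation, averaged 217 ± 85.2 CPM in MMI16 and 557 ± 178 CPM in MMI8 (log2 fold change -1.42, adjusted p = 1.99e-06). For Poldip3, 8 of the 10 MMI16 libraries were below the lowest MMI8 library.

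Vcl, Necap1 and Rabl3 were also among the 16. Vcl encodes vinculin, which links adhesion receptors to actin. Its lowest, median and highest levels were 27.0, 94.2 and 134 CPM in MMI16, against 88.9, 202 and 353 CPM in MMI8, a fall of 1.41 ± 0.20 on the log2 scale (adjusted p = 5.24e-06). Necap1, an accessory protein of clathrin-coated vesicles, averaged 77.7 ± 32.8 CPM in MMI16 and 193 ± 87.2 CPM in MMI8 (log2 fold change -1.38, adjusted p = 8.11e-06). Rabl3, a small GTPase related to Rab proteins, fell by 1.43 ± 0.30 on the log2 scale (adjusted p = 0.00146) at low levels of 10.9 ± 6.27 CPM in MMI16 and 30.2 ± 18.0 CPM in MMI8. In all 3 genes, every MMI16 library was below the MMI8 mean.

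The other large falls came from several compartments. Fbxo21, a substrate receptor of SCF ubiquitin ligases, had a log2 fold change of -1.36. Mrpl51 of the mitochondrial ribosome had -1.26 ± 0.20 (adjusted p = 2.04e-05) and the lipid acyltransferase gene Agpat5 also -1.26, with an SE of 0.33 and an adjusted p of 0.0253. Tmem265 had -1.31 and Zfp280b, a zinc finger protein, -1.26. Only Agpat5 among these 5 genes lost its call when 1 library was left out: its adjusted p was 0.0906 without MMI16 replicate 9, 0.0539 without MMI16 replicate 30, 0.0530 without MMI8 replicate 8, 0.0781 without MMI8 replicate 28 and 0.116 without MMI8 replicate 63.

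Jag1, a cell-surface ligand of Notch receptors, and Sox9, a transcription factor of many progenitor and epithelial cells, were the 2 genes called among 6 tested of the Notch and Sox9 list, where 2.08% of all genes tested were called. Jag1 had 8.42, 26.1 and 36.6 CPM (lowest, median, highest) in MMI16 and 19.0, 47.7 and 91.3 CPM in MMI8, a fall of 1.26 ± 0.25 on the log2 scale (adjusted p = 0.000777). Sox9 averaged 13.4 ± 8.54 CPM in MMI16 and 26.0 ± 11.3 CPM in MMI8, and its call was marginal (log2 fold change -1.10 ± 0.32, adjusted p = 0.0482). Leaving out 1 library ended the Sox9 call in 14 of 20 fits, with adjusted p of 0.0189 to 0.184. Both genes were far higher in vehicle, at 224 CPM for Jag1 and 139 CPM for Sox9. The remaining members, Ncstn, Sox4, Notch2 and Adam17, had log2 fold changes of -0.17 to 0.37.

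Promoter windows of 3 lower genes are shown because they span the patterns seen: Ptp4a2 for the smallest p, Jag1 for a steep series over vehicle and both doses, and Crem for a level that peaked at the lower dose. They run from 250 bases before to 50 after the annotated start (RefSeq, build GRCr8) and read 5′ to 3′ on the gene's strand. Capitals mark the cyclic AMP response half-site TGACG on either strand; overlapping matches are counted singly. Ptp4a2 lies at chr5:147465364-147465663 on the plus strand, Jag1 at chr3:144894834-144895133 on the minus strand and the Crem window with the most matches at chr17:58985240-58985539 on the plus strand.
Ptp4a2: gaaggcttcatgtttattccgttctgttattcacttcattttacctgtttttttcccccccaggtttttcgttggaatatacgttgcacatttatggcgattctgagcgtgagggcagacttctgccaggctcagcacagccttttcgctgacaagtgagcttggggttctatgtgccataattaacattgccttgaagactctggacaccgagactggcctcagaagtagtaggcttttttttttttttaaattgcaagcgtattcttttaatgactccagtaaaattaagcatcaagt
Jag1: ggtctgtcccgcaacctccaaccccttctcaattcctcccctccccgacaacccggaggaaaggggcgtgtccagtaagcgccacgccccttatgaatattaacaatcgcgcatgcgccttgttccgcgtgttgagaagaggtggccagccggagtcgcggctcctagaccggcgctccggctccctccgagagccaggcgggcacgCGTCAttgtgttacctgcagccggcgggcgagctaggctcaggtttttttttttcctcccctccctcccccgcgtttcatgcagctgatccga
Crem: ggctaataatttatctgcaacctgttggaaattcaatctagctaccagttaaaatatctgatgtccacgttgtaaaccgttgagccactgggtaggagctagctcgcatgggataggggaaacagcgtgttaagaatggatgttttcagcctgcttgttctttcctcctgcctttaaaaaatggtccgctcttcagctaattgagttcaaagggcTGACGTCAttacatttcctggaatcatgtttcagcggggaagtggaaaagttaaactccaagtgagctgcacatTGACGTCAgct
The Crem window held 4 half-sites in 2 palindromic pairs, the Jag1 window 1 and the Ptp4a2 window 0. Over the lower genes that matched the table (80 of 93, 85 windows), 38.8% of windows held this half-site, against 36.5% of the 4258 windows of the genes tested. The thyroid hormone response half-site AGGTCA was in 9.41% of the windows of lower genes and 12.1% of those of genes tested, and the AP-1 site TGANTCA in 2.35% and 5.07%. Median GC content was 64.3% in the windows of lower genes and 60.3% in those of all genes tested.

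The vehicle libraries place the dose difference. The vehicle comparisons use the same methimazole libraries, so the values are given side by side only. The mean of vehicle was the highest of the 3 groups for 89 of the 93 lower genes, as for 979 (20.0%) of all 4906 genes tested. The median of the 93 genes' mean levels was 55.8 CPM in MMI16, 102 CPM in MMI8 and 277 CPM in vehicle. Against vehicle, edgeR called 356 genes lower (7.26%) and 42 higher (0.856%) in MMI16, 8.11% in all, and 338 lower (6.89%) and 72 higher (1.47%) in MMI8, 8.36% in all. Of the 93 genes, 89 were called lower in MMI16 than in vehicle and 80 lower in MMI8 than in vehicle. The span could be wide: Ythdf2, a reader of N6-methyladenosine (m6A) that leads mRNAs to decay, averaged 126 CPM in MMI16, 204 CPM in MMI8 and 1193 CPM in vehicle. Traf3 was different: its MMI8 level of 80.3 ± 35.5 CPM was not called different from the 107 CPM of vehicle (log2 fold change -0.44, adjusted p = 0.292), whereas MMI16 was at -2.18 against vehicle. Ywhag, a 14-3-3 adaptor protein, likewise averaged 182 ± 71.4 CPM in MMI16, 402 ± 111 CPM in MMI8 and 404 CPM in vehicle.

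**Figure D3:**
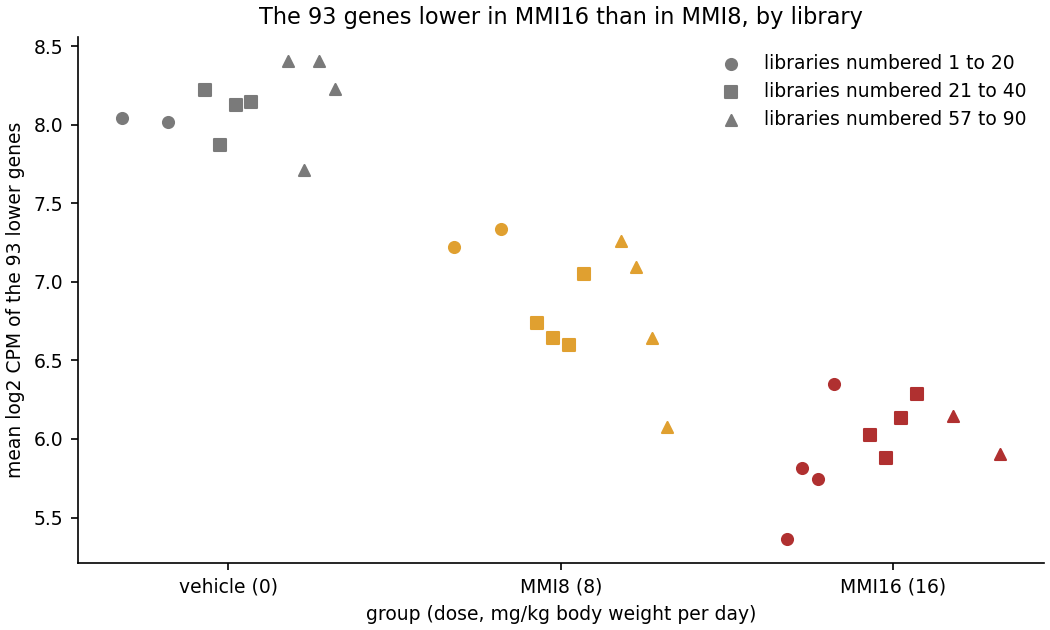
Mean log2 CPM of the 93 lower genes in each PD16 library (up), by dose group (across); the marker shape gives the run of library numbers in the labels. The genes were chosen on the MMI16 and MMI8 libraries, whose means lie at 5.36 to 6.35 and 6.08 to 7.33, below the vehicle libraries at 7.71 to 8.41.

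The 93 genes moved together from library to library. Their mean log2 CPM was 5.36 to 6.35 in MMI16 and 6.08 to 7.33 in MMI8, and the overlap came from a single MMI8 library, replicate 66, since the next lowest MMI8 library was at 6.60. That library held the lowest MMI8 value of 60 of the 93 genes. In MMI16, replicate 9 held the lowest value of 59 genes and replicate 12 the highest of 41. None of the 93 genes had groups without overlap, and with replicate 66 set aside 8 had, which were also the only 8 of all 4906 genes (0.163%). Replicate 66 was singled out on these same genes. For 73 of the 93 genes, every MMI16 library was below the MMI8 mean, which was so for 119 of all 4906 genes; the choice of the 93 used these values. The median pairwise correlation of the 93 genes within a group, over 10 libraries, was 0.33 in MMI16, 0.60 in MMI8 and 0.41 in vehicle, and it was near 0 over all genes tested; the genes share each library's depth and scaling. The labels' numbers run in 3 stretches, 1 to 20, 21 to 40 and 57 to 90, and within each the MMI16 mean was the lower one. It was 5.82 in MMI16 against 7.28 in MMI8 in the first stretch and 6.08 in MMI16 against 6.76 in MMI8 in the next. In the last stretch it was 6.03 in MMI16 against 6.77 in MMI8, and single libraries overlapped. The 93 genes were chosen on these same libraries, so a lower MMI16 mean in each stretch was largely built in.

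Only 4 of the 93 lower genes did not have their highest mean in vehicle, and 3 of them are named here after their values were seen. Crem, a transcription factor of the cyclic AMP pathway, had 30.3, 87.3 and 193 CPM (lowest, median, highest) in MMI16, 91.6, 236 and 309 CPM in MMI8, and 40.8, 86.8 and 124 CPM in vehicle. MMI16 was thus close to vehicle, and MMI8 stood above both. The log2 fold change was -1.23 ± 0.27 for MMI16 against MMI8 (adjusted p = 0.00293), 1.31 for MMI8 against vehicle (adjusted p = 0.000194) and 0.07 for MMI16 against vehicle (adjusted p = 0.955). Akr1b8, an aldo-keto reductase, had the same shape, with means of 364 ± 149 CPM in MMI16, 750 ± 312 CPM in MMI8 and 327 CPM in vehicle (log2 fold change -1.08, adjusted p = 0.0104). Tmem97, a sterol-regulated protein of the endoplasmic reticulum, also peaked in MMI8. It averaged 348 ± 77.4 CPM in MMI16, 489 ± 61.6 CPM in MMI8 and 367 CPM in vehicle (log2 fold change -0.49, adjusted p = 0.0292). Leaving out 1 library ended the call of Tmem97 in 8 of 20 fits.

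Sorted by role after their values were seen, 65 of the 93 lower genes fell into 7 groups, whose sizes and medians describe the calls and test nothing. Kinase, phosphatase and receptor signalling had 15 genes, 1.38-fold to 3.32-fold lower, with Map3k12, an upstream kinase of JNK (28.7 CPM in MMI16 and 57.1 CPM in MMI8), Fzd6, a Wnt receptor (35.6 CPM in MMI16 and 79.3 CPM in MMI8), and Mknk2, a kinase of the cap-binding factor eIF4E (76.2 CPM in MMI16 and 124 CPM in MMI8). The ubiquitin and proteasome group had 10 genes, 1.34-fold to 2.57-fold lower, among them the proteasome subunit gene Psmb4 at 528 ± 73.6 CPM in MMI16 and 763 ± 141 CPM in MMI8. The messenger RNA group had 9 genes, 1.71-fold to 2.66-fold lower, with Paip1, a partner of the poly(A)-binding protein, at 76.7 CPM in MMI16 and 146 CPM in MMI8. Transcription and chromatin genes numbered 11, with a median of -1.10, and included the chromatin remodeller Smarca5 and the Mediator subunit Med26. Poldip3, described above by splicing and translation, was counted in this group. Mitochondrial and peroxisomal genes numbered 7, with Abcd3, a peroxisomal fatty acid transporter, at 139 CPM in MMI16 and 313 CPM in MMI8 and Vdac1, the outer-membrane channel, at 531 CPM in MMI16 and 698 CPM in MMI8. Endoplasmic reticulum and lipid genes numbered 9 and adhesion and actin genes 4, among them Marcks (379 CPM in MMI16 and 715 CPM in MMI8).

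Few genes were higher at the higher dose, and most of these calls were fragile. Tep1, a protein of telomerase and vault particles, was the steepest of the 9: it had 8.12, 16.3 and 54.4 CPM (lowest, median, highest) in MMI16 and 0, 5.12 and 11.4 CPM in MMI8, and 9 MMI16 libraries were above every MMI8 library. Its log2 fold change was 1.63 ± 0.32 (adjusted p = 0.000589), and it was 1.48 without MMI16 replicate 10, the library at 54.4 CPM. It lies under the level set for named genes and is named after its values were seen. Lrrc47, a leucine-rich repeat protein, averaged 27.8 ± 21.1 CPM in MMI16 and 12.5 ± 4.83 CPM in MMI8 (log2 fold change 1.00 ± 0.28, adjusted p = 0.0369). Replicate 10 of MMI16 alone reached 84.0 CPM for Lrrc47 and 109 CPM for Micu2, a gatekeeper of mitochondrial calcium uptake (log2 fold change 0.86, adjusted p = 0.0487). Without it the values were 0.81 (adjusted p = 0.101) for Lrrc47 and 0.70 (adjusted p = 0.126) for Micu2. Leaving out 1 library ended the call of Lrrc47 in 12 of 20 fits and that of Micu2 in 15 of 20.

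Galm, which interconverts the forms of galactose, had 19.8, 24.6 and 52.8 CPM (lowest, median, highest) in MMI16 and 7.28, 18.0 and 35.0 CPM in MMI8, and all 10 MMI16 libraries were above the MMI8 mean (log2 fold change 0.87 ± 0.22, adjusted p = 0.0166). Its adjusted p was 0.159 without MMI16 replicate 9, 0.0533 without MMI16 replicate 73 and 0.0549 without MMI8 replicate 28. Pnisr, a serine- and arginine-rich nuclear protein, averaged 57.6 ± 11.9 CPM in MMI16 and 38.2 ± 8.72 CPM in MMI8, with 6 MMI16 libraries above every MMI8 library (log2 fold change 0.58 ± 0.15, adjusted p = 0.0221). For Pnisr the adjusted p was 0.128 without MMI16 replicate 9, 0.0592 without MMI16 replicate 30, 0.0586 without MMI8 replicate 25 and 0.0688 without MMI8 replicate 28.

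The m6A machinery held calls in both directions. Mettl3, the catalytic subunit of the methyltransferase, was higher, at 56.8 ± 14.2 CPM in MMI16 and 39.8 ± 9.02 CPM in MMI8 (log2 fold change 0.51 ± 0.15, adjusted p = 0.0488), but leaving out 1 library ended that call in 14 of 20 fits. Wtap, the subunit that places the methyltransferase at its targets, was lower, at 104 CPM in MMI16 and 175 CPM in MMI8 (log2 fold change -0.82 ± 0.13, adjusted p = 2.63e-05). The reader gene Ythdf2 was lower too (log2 fold change -0.77 ± 0.17, adjusted p = 0.00349). The calls of Wtap and Ythdf2 held in all 20 fits without 1 library. Of 9 m6A genes tested, a group put together after the values were seen, these 3 were called, beside 2.08% of all genes tested, and the choice of the group used these values.

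Across 16 gene lists of pathways, single members rather than whole lists were called. The ubiquitin ligase and deubiquitinase list had 4 of 24 tested (16.7%, beside 1.90% of all genes tested called lower): Fbxo21, Rnf111, which marks targets in the TGF-beta and SUMO pathways (log2 fold change -1.03, adjusted p = 0.00312), Ube3a (-0.85, adjusted p = 0.00228) and Usp14 of the proteasome (-0.43, adjusted p = 0.0356). The list's median was nevertheless 0.09, close to the 0.04 of all genes tested, and leaving out 1 library ended the call of Usp14 in 8 of 20 fits. Dusp10 was the sole call of 6 among phosphatases and feedback regulators of MAP kinases. Ptp4a2 was that of 7 among tyrosine phosphatases and Traf3 that of 13 in the NF-kappa B list. Over all genes tested, 2.08% were called. Lists were chosen with earlier results of these data known, so calls in them may be in part built in. No call came from 19 MAP kinases and upstream kinases (median 0.03), 20 immediate early and heat shock genes (-0.13), 42 replication and mitosis genes (0.07), 28 Nrf2 and antioxidant genes (0.04) or 72 ribosomal protein genes (0.10).

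**Figure D4:**
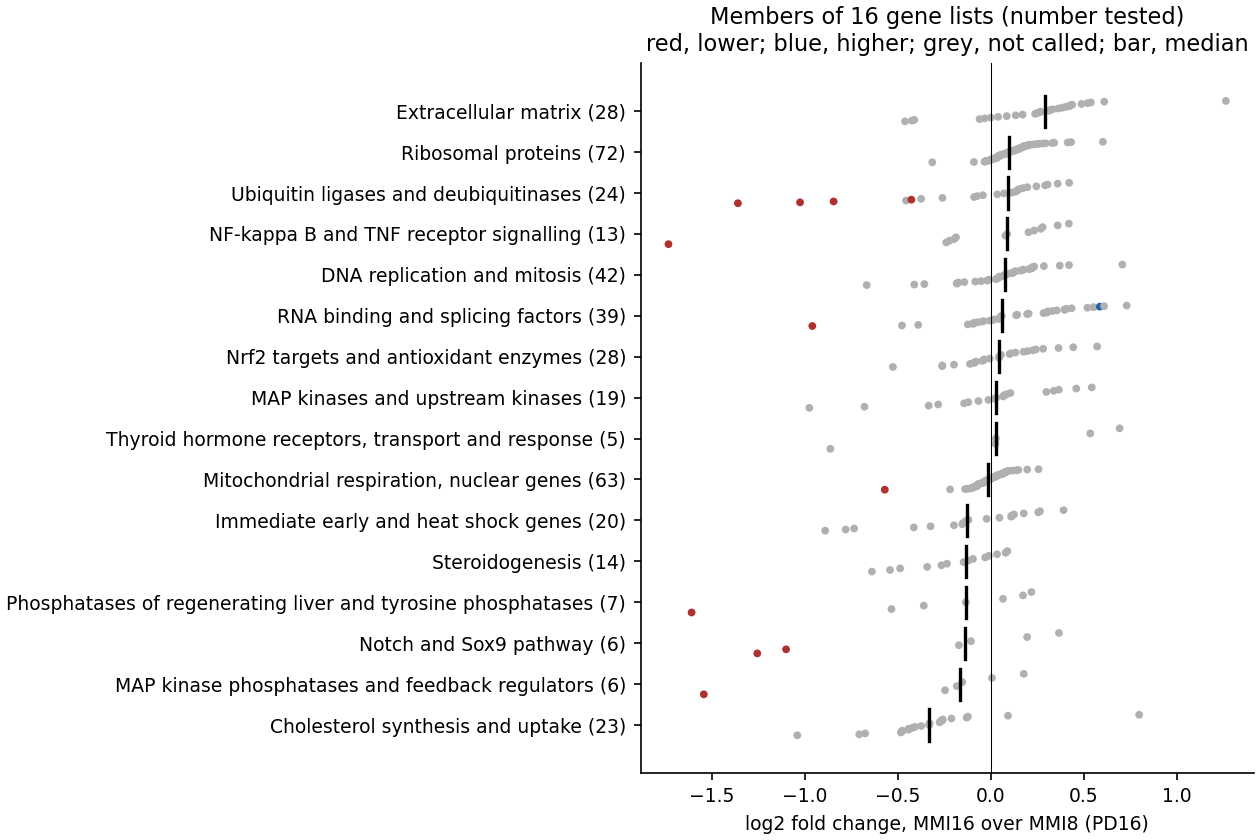
Log2 fold change, MMI16 over MMI8 (across), of every tested member of 16 gene lists (down, with the number tested), with called genes in red (lower) or blue (higher) and the black bar at the list's median. Extracellular matrix genes have the highest median, 0.29, and cholesterol genes the lowest, -0.33, with no member of either called.

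Ndufa10 was the only gene called among 63 nuclear genes of mitochondrial respiration (1.59%, near the 1.90% of all genes tested that were called lower). This accessory subunit of complex I had 33.7, 59.9 and 75.6 CPM (lowest, median, highest) in MMI16, 61.6, 83.7 and 99.6 CPM in MMI8 and 264, 353 and 489 CPM in vehicle. It fell by 0.57 ± 0.14 on the log2 scale at the higher dose (adjusted p = 0.0123), and 7 MMI16 libraries were below all MMI8 libraries. The list's median was -0.01, and its highest member was at 0.26. Among 39 RNA-binding and splicing factor genes, Elavl1, which binds and stabilises AU-rich mRNAs, was lower, at 132 ± 48.5 CPM in MMI16 and 240 ± 81.6 CPM in MMI8 (log2 fold change -0.96 ± 0.17, adjusted p = 8.68e-05), and Pnisr was higher. That list's median was 0.06. Its 1 lower gene made 2.56% of those tested, beside 1.90% called lower over all genes tested, and it had 1 higher gene, beside 0.183%.

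None of the tested genes of steroid synthesis or of cholesterol synthesis and uptake was called between the doses. Of those listed, 14 of 25 steroidogenic and 23 of 32 cholesterol genes passed the filter. Over all genes tested 2.08% were called, so no call among so few genes says little about them. The side-chain cleavage gene Cyp11a1 averaged 7792 CPM in MMI16 and 8942 CPM in MMI8, with overlapping ranges (log2 fold change -0.24, adjusted p = 0.583). Cyp11b1, the last enzyme of corticosterone synthesis, averaged 6292 CPM in MMI16 and 5807 CPM in MMI8 (0.08, adjusted p = 0.937). Star, which carries cholesterol into mitochondria, was nearest to a call, at 360 CPM in MMI16, 548 CPM in MMI8 and 341 CPM in vehicle (log2 fold change -0.64 ± 0.19, adjusted p = 0.053); DESeq2 called it, as did edgeR without MMI16 replicate 31, 32 or 73 or without MMI8 replicate 66. It is named after its values were seen. The median of 14 steroidogenic genes was -0.13 for MMI16 against MMI8, 0.21 for MMI8 against vehicle and 0.10 for MMI16 against vehicle. The first of these was unsteady: it was -0.04 without MMI16 replicate 30, -0.07 without MMI16 replicate 29, -0.08 without MMI16 replicate 75, -0.07 without MMI8 replicate 28 and -0.20 without MMI8 replicate 8. It was -0.05 with no filter on low counts. Within libraries numbered 1 to 20, 21 to 40 and 57 to 90 it was -0.07, -0.40 and 0.08.

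Of 23 genes of cholesterol synthesis and uptake, 21 were below 0, with a median of -0.33, where 2089 of 4906 genes tested were below 0. Fdps, which makes farnesyl diphosphate, averaged 1382 ± 590 CPM in MMI16 and 1881 ± 245 CPM in MMI8 (log2 fold change -0.48, adjusted p = 0.451), and Acat2 679 ± 226 CPM in MMI16 and 921 ± 124 CPM in MMI8 (-0.48, adjusted p = 0.361). The same list had a median of 0.39 for MMI8 against vehicle and 0.11 for MMI16 against vehicle. Its dose median was -0.37 in libraries numbered 1 to 20, -0.54 in those numbered 21 to 40 and 0.04 in those numbered 57 to 90, with 2 from MMI16 and 4 from MMI8. Without MMI16 replicate 9 it was -0.33. In the extracellular matrix list 22 of 28 genes were above 0, with a median of 0.29. None was called, beside 2.08% of all genes tested. Collagen gene Col1a2 averaged 2483 CPM in MMI16 and 2165 CPM in MMI8 (0.25, adjusted p = 0.808), and Sparc, a matrix-binding glycoprotein, 637 ± 184 CPM in MMI16 and 525 ± 98.3 CPM in MMI8 (0.26, adjusted p = 0.411). The matrix median was 0.19, 0.43 and 0.08 in the same 3 stretches of numbers and 0.20 without MMI16 replicate 10, whose Sparc level was 1102 CPM. Elastin gene Eln had the largest value of the list (1.26 ± 0.42, adjusted p = 0.116; named after its values were seen), and DESeq2 called it.

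Genes of thyroid hormone reception, transport and response were mostly too low to test: 5 of the 36 in the table passed the filter. Of these, edgeR called none, where 2.08% of all genes tested were called. With so few genes tested, no call says little about them. Cpt1a, the gate enzyme of mitochondrial fatty acid oxidation, came nearest, at 70.8 ± 27.0 CPM in MMI16, 121 ± 50.1 CPM in MMI8 and 390 CPM in vehicle (log2 fold change -0.86 ± 0.25, adjusted p = 0.054). All 10 MMI16 libraries were below the MMI8 mean, and edgeR called Cpt1a in 6 of the 20 fits without 1 library, as did DESeq2 on all libraries (adjusted p = 0.024).

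Over the 14 marker lists 2 genes were called, 1 of 10 tested in the macrophage and leukocyte list and 1 of 10 in the endothelial list. The other marker lists had no call, and 2.08% of all genes tested were called. A single call in a list does not describe a cell type. Mrc1, the mannose receptor of tissue macrophages, was lower, with 7.22, 13.0 and 16.8 CPM (lowest, median, highest) in MMI16, 13.6, 26.4 and 59.3 CPM in MMI8 and 71.3, 86.0 and 104 CPM in vehicle (log2 fold change -1.09 ± 0.22, adjusted p = 0.00106). The other 9 tested macrophage and leukocyte genes were not called, the list's median was 0.26, and its summed level was 193 ± 30.3 CPM in MMI16 and 184 ± 34.7 CPM in MMI8. Kdr, the VEGF receptor of endothelium, averaged 85.8 ± 29.3 CPM in MMI16 and 113 ± 27.6 CPM in MMI8 (log2 fold change -0.46 ± 0.13, adjusted p = 0.0351), a call lost in 11 of 20 fits without 1 library. The other 9 tested endothelial genes were not called, and the endothelial sum was 470 ± 73.5 CPM in MMI16 and 463 ± 63.9 CPM in MMI8. Hepatocyte genes summed to 43.8 to 1630 CPM in MMI16 and 45.2 to 99.8 CPM in MMI8, the top value being that of replicate 9. The two-sided permutation test gave an unadjusted p of 0.0528 and an adjusted p of 0.379 over 20 measures. All 5 tested hepatocyte genes were above 0 (median log2 fold change 2.91) and none was called. Alb was at 3.04 (adjusted p = 0.379), and at 1.07 without that library. The part of liver transcripts in the dose difference was not tested beyond leaving out libraries: 72 genes were lower and 6 higher without the 5 PD16 libraries with at least 200 CPM of Alb.

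In the libraries labelled GD21, whose embryonic globin share went against that label, the same dose step gave no call. In 6236 genes tested, edgeR called 0 genes between MMI16 and MMI8 (0% of genes tested), with 394 at an unadjusted p under 0.05. DESeq2 also called 0. Hepatocyte genes at GD21 summed to 92.8 to 9893 CPM in MMI16 and 76.7 to 27368 CPM in MMI8, and their part was not tested. With 6 libraries per dose at GD21 against 10 at PD16, a lack of calls does not show a lack of difference. The 93 genes lower at PD16 had a median log2 fold change of -0.00353 at GD21, with 47 below 0 and a range of -0.72 to 0.45. A test of the difference between the stages (PD16 minus GD21, 6287 genes) called 10 genes with a more negative (0.159%) and 2 with a more positive (0.0318%) dose difference at PD16, 0.191% in all. Of these 12 genes, 7 were among the 93 lower genes and 1, Tep1, among the 9 higher genes. The stage test holds the same PD16 dose difference by which those genes were chosen, so this overlap is in part built in.

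Ptp4a2 had the smallest p of the stage test. It averaged 896 ± 153 CPM in MMI16 and 836 ± 159 CPM in MMI8 at GD21 (SD, n = 6 each), against 245 ± 83.9 CPM in MMI16 and 717 ± 287 CPM in MMI8 at PD16 (SD, n = 10 each), and the log2 difference between the stages was -1.68 ± 0.27 (edgeR, adjusted p = 0.000141). Traf3 averaged 124 ± 53.2 CPM in MMI16 and 87.0 ± 32.4 CPM in MMI8 at GD21, and its difference was -2.17 ± 0.44 (edgeR, adjusted p = 0.0131). Spats2, Rap1gds1, Ywhag, Mknk2 and Psmb4 had differences of -1.42 to -0.69 with adjusted p of 0.0182 to 0.0405 by the same test. For the other 86 lower genes the stage difference did not pass the test, which does not show that the stages were alike. Without a filter on low counts Ptp4a2, Traf3 and Spats2 were still called, and Rap1gds1, Ywhag, Mknk2, Psmb4 and Tep1 were not.

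**Figure D5:**
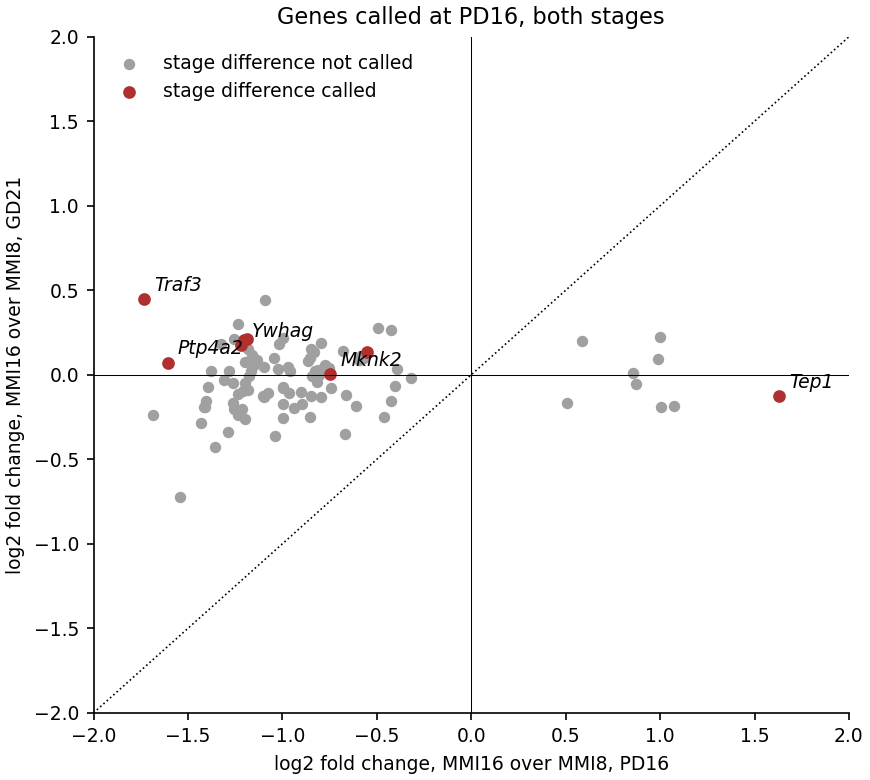
Log2 fold change, MMI16 over MMI8, of the genes called at PD16, at PD16 (across) and at GD21 (up); the dotted line marks equal values. The lower genes spread along the horizontal line at 0 for GD21, and the 8 genes in red have a called difference between the stages.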

How the data were processed

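RNA was extracted with a column kit and made into barcoded, tagmented 3′ libraries, per the labels' protocols. The authors deposited raw counts per gene symbol; BWA 0.7.4.4 and the rat build rn6 are named in the submitters' processing notes. Counting tool, annotation, strand and molecular barcode handling were not given in the sources used here, so a gene and its antisense partner cannot be told apart. Of 17483 symbols, 15578 matched current RefSeq symbols.

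Groups came from the labels' dose and stage. All 53 PD16 libraries in 5 groups shared a fit in edgeR 4.0.16 (R 4.3.3, limma 3.58.1) with TMM scaling, a filter at a minimum count of 10 and the robust quasi-likelihood F test. A gene was called where its p, adjusted by Benjamini-Hochberg over all genes tested in that comparison, was below 0.05. The GD21 libraries had a fit of their own, and the stage difference was tested in all 83. CPM are unadjusted counts per library total. At the median total of 433719, 1 count is 2.31 CPM, and it is less in deeper libraries, so the lowest levels printed stand for few counts. Library measures were compared with 100000 permutations (numpy 2.4.6, scipy 1.17.1). DESeq2 1.42.0 was an alternative. Other alternatives were scaling, filters, libraries in the fit, number series, thinning to 202270 counts and leaving out libraries. On simulated data for MMI16 against MMI8 (4768 genes) the test recovered 37.9% of 1.5-fold, 82.0% of 2-fold and 98.5% of 3-fold changes. There, 3.45% of calls were false (5 calls). The simulation was run once, drew genes independently of each other, and balanced rises and falls among 200 changed genes. The lower genes of the real data moved together, so these rates may not carry over. The closest replicate pair had a chi-square per degree of freedom of 1.78 in MMI16 and 1.64 in MMI8, where sampling noise alone gives about 1.

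Named genes were the 16 largest falls and 10 largest rises among called genes averaging at least 20 CPM over the 20 libraries (identifier-only symbols passed over), at most 3 called genes from each list, and, where a list had no call, its 2 most abundant members; the text gives those its results turn on. Members and lists were chosen with earlier results of these data known. Some genes that the rule named are not reported here.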

Additional observations from a re-analysis of the deposited data

Results flagged for a closer look

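Among 128 groups of 10 values looked at, 14 held a value far from the other 9 (by Dixon's gap over range at the 95% level), and chance alone flags about 1 in 20 groups. Replicate 10 of MMI16, the library with the lowest total, held the top value 6 times. It had 84.0 CPM of Lrrc47, with the next library at 33.7 CPM. It had 109 CPM of Micu2, 54.4 CPM of Tep1, 64.3 CPM of Eln and 1102 CPM of Sparc. It also had the most genes detected after thinning every library to the same total, 8586. Replicate 9 of MMI16 had 507 CPM of Alb and 1630 CPM summed over hepatocyte genes, and the lowest values of Ube3a (30.3 CPM) and Psmb4 (343 CPM). In replicate 29 of MMI16, Rnf111 was at 33.7 CPM. In MMI8, Galm was at 35.0 CPM in replicate 66, Mrc1 at 59.3 CPM in replicate 64 and genes detected after thinning at 8157 in replicate 7. No cause was tested.

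The MMI16 against MMI8 difference itself differed between PD16 and GD21 for 12 genes (edgeR interaction test). On the log2 scale, PD16 minus GD21, it was -2.30 for Atf7ip, -2.17 for Traf3, -1.97 for Reep2, -1.68 for Ptp4a2, -1.42 for Spats2, -1.41 for Rap1gds1, -1.40 for Ywhag, -1.28 for Tmem120a, -0.76 for Mknk2, -0.69 for Psmb4, 0.77 for Tst and 1.77 for Tep1.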

How the results depend on the processing

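Every gene called between MMI16 and MMI8 kept its direction in each alternative that gave it a value. The alternatives refitted the same libraries or parts of them, on which the genes were chosen, so a kept direction was largely built in. Against 93 lower and 9 higher genes as reported, leaving out 1 library gave 74 to 110 lower and 4 to 24 higher genes. The count of higher genes was 5 with the library number series as a factor and 2 in a fit of the compared libraries alone. Libraries numbered 1 to 20 gave 1 lower and 0 higher genes, those numbered 21 to 40 gave 19 and 1, and those numbered 57 to 90 gave 0 and 0, with 6 to 8 libraries each. Thinning to the lowest total gave 36 lower and 0 higher genes. Against vehicle, the genes higher in MMI16 were 42 as reported, 27 without a filter and 14 in a fit of those groups alone. The genes higher in MMI8 than in vehicle were 72 as reported, 27 without a filter and 140 in a fit of those groups alone. For the stage difference, DESeq2 called 25 genes lower against 10, and with no filter edgeR called 4 lower and 0 higher. Apart from the fewer samples, counts or genes these settings imply, the cause was not tested. The other 82 counts of calls stayed within 1.5 times, and no called gene changed direction. Of 528 list medians under these settings, 13 moved by more than the spread between libraries and 32 differed in sign from the reported one; in libraries numbered 57 to 90 the cholesterol median was 0.04 and the steroidogenic 0.08, against -0.33 and -0.13 as reported. No paired analysis was possible because each library carries its own number. In simulated data, 37.9% of 1.5-fold changes were recovered over all genes, with no split by level.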
